A study of Mus musculus with 11 samples.

Results

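The solute carriers described here move amino acids, the amino acid derivatives taurine and creatine, and short peptides across the plasma membrane or the lysosomal membrane. The 33 genes were taken as a fixed list of symbols from the SLC1, SLC3, SLC6, SLC7, SLC15, SLC16, SLC36, SLC38 and SLC43 families, and all 33 were found among the 17475 genes measured in macrophages sorted from mouse mammary tumours. They were chosen by symbol, with earlier results of these data known.

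Messenger RNA was sequenced in 11 libraries from 6 female mice on a background backcrossed to B6. All of the mice carried PyMT, a viral oncogene expressed in the mammary gland that drives tumours there, were lethally irradiated at 7 weeks of age, received bone marrow of WT B6 donors, and ate a low protein diet from 2 weeks later for 6 weeks. The groups were tumour-associated macrophages (TAMs) of S100a8-cre Rosa26-LSL-MYC PyMT mice, called MYC TAMs (mice 2, 4 and 6), mammary tissue macrophages (MTMs) of the same genotype, called MYC MTMs (mice 2 and 4), TAMs of PyMT mice without those alleles, called control TAMs (mice 1, 3 and 5), and MTMs of those mice, called control MTMs (mice 1, 3 and 5). TAMs were gated as F4/80+ and Vcam+, and MTMs as F4/80+, Vcam- and FOLR2+, both after exclusion of SiglecF, Ly6G, B220 and Ly6C positive cells. In the MYC mice, Cre is made under the S100a8 promoter, which is active in granulocytes and monocytes, and turns on a MYC transgene at Rosa26. The donor marrow was wild type in every group, and the labels do not separate donor cells from host cells that survived irradiation. No library came from another diet, so an effect of diet cannot be told apart from anything else that the mice share.

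An amino acid carrier decides which amino acids a cell can take up or give out. Many carriers of the SLC7 family are light chains that reach the cell surface only when bound to the heavy chain CD98, the product of Slc3a2, and most of these exchange one amino acid for another. In macrophages, carriers of arginine feed arginase and nitric oxide synthase, cystine uptake supplies glutathione, and lysosomal carriers return the amino acids and peptides of digested material to the cytosol and report on them to mTORC1, the growth-controlling kinase complex. Several carrier genes, among them Slc7a5, Slc7a11 and Slc1a4, are textbook targets of ATF4, a transcription factor induced when amino acids are short, and in tumour cells Slc7a5 and Slc1a5 are known targets of MYC.

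Levels are the deposited log2 values, which behave as log2(x + 1.00) with x standing for reads per gene after scaling by library depth and gene length, so that levels of different genes can be compared per length. About 32.9 to 43.6 M reads (M for the SI prefix mega) fell in genes per library, an estimate from the spacing of the lowest values. The MYC TAM library of mouse 4 stood apart. It had the lowest estimated depth, only 581 of its genes lay at the lowest value that a gene shares between libraries (2072 to 3522 in the others), and 45.8% of all genes with a mean level under 1 had their highest value in it. Folr2 RNA followed the gate, at 1.07, 1.44 and 3.62 in MYC TAMs, 8.45 and 8.07 in MYC MTMs, 0.96, 1.37 and 1.77 in control TAMs and 7.77, 8.05 and 7.67 in control MTMs. Vcam1 RNA did not follow it in the MYC mice, at 0.96, 1.61 and 2.82 in MYC TAMs against 8.60, 7.64 and 8.57 in control TAMs, with 2.32 and 2.31 in MYC MTMs and 5.31, 6.86 and 5.25 in control MTMs. Adgre1, which encodes F4/80, was at 7.50 to 8.37 in MYC TAMs, 9.88 to 9.89 in MYC MTMs, 9.40 to 9.93 in control TAMs and 9.54 to 9.96 in control MTMs. The mouse Myc gene was at 1.78 to 2.16 in MYC TAMs, 2.87 to 3.02 in MYC MTMs, 2.66 to 3.18 in control TAMs and 2.53 to 2.75 in control MTMs. The sources used here do not say whether transgene reads would be counted in that gene, so these values do not check the genotype labels.

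The carriers covered a wide range of levels. There were 4 genes with a mean over the 11 libraries of 5 or more, 14 between 2 and 5, 6 between 1 and 2, and 9 under 1, while 46.4% of all genes were under 1 and 9.89% at 5 or more. The heavy chain gene Slc3a2 was the highest (mean 7.21, range 6.66 to 7.81), followed by Slc6a6, which encodes the taurine carrier (6.70), Slc7a7, which exports arginine and lysine in exchange for neutral amino acids (5.71), and Slc7a8, an exchanger of small and large neutral amino acids (5.16). On the x scale these 4 genes made up 69.6% to 73.4% of the summed x of the 33 carriers in every library. Among the 9 carriers under 1 were the glutamate carriers Slc1a1, Slc1a2 and Slc1a3, the glycine carrier Slc6a9, the cystine and glutamate exchanger Slc7a11, and Slc1a4, Slc7a3, Slc38a4 and Slc43a1. Of these 9, 4 had their highest value in the MYC TAM library of mouse 4, among them Slc7a3 (0.51), Slc43a1 (0.71) and Slc38a4 (0.81).

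**Figure D1:**
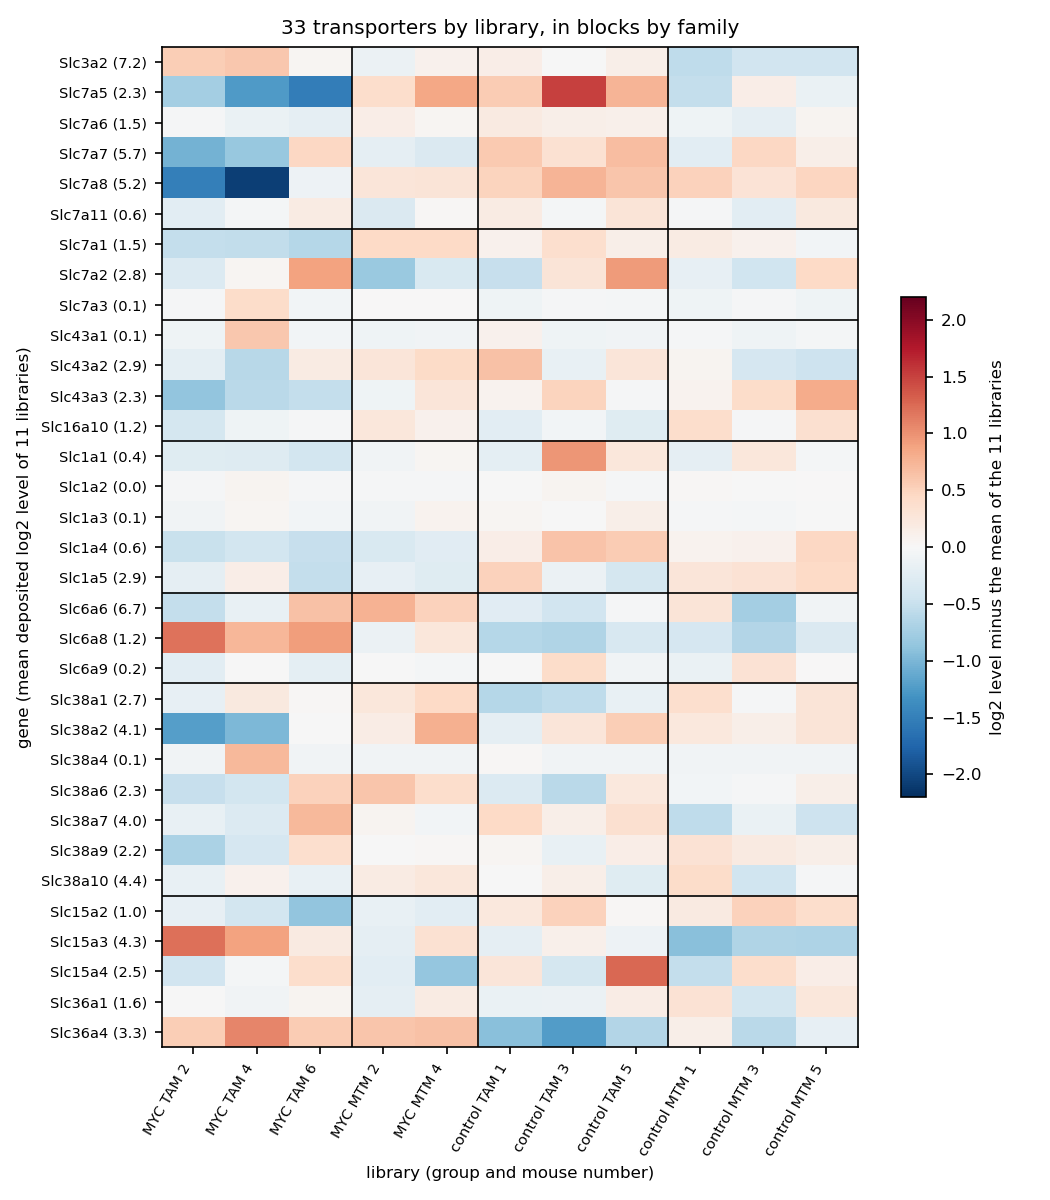
Heat map of the 33 carriers (rows, in blocks by family, with the mean deposited log2 level of each gene in brackets) in the 11 libraries (columns, by group and mouse number). Colour is the deposited log2 level minus the gene's mean over the 11 libraries. Slc7a5 and Slc7a1 are blue in all 3 MYC TAM columns, Slc6a8 is red in all 3, and Slc7a7, Slc7a8 and Slc38a2 are bluer in mice 2 and 4 than in mouse 6.

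Promoter sequence was read because ATF4 and MYC are known to act on several of these carrier genes through short DNA elements. RefSeq windows on GRCm38.p6, from 250 bases before a transcript start to 50 after it, were on hand for 24 of the 33 genes, which have 35 windows between them. Slc7a5, Slc6a8, Slc43a3, Slc1a5, Slc15a3, Slc7a3, Slc6a6, Slc38a1 and Slc7a2 had no window and were not searched. The core TGATGCAA, the C/EBP-ATF response element that ATF4 binds, was searched on both strands. It was found in 4 of the 35 carrier windows (11.4%), which belong to 3 genes (Slc1a4, Slc7a11 and Slc7a7), against 0.895% of all 32851 windows. The 2 Slc7a7 windows among them overlap and hold the same site. Slc1a4 and Slc7a11 were already known as targets of ATF4, so the carrier share is no test of enrichment. The E-box CACGTG, a motif bound by MYC and by TFE3, reads the same on both strands. It lay in 3 of the 35 carrier windows (8.57%), of Slc36a1, Slc38a7 and Slc43a1, a share near the 7.15% of all windows. No carrier with a window held both motifs, and the motifs do not overlap. The sequences below run 5′ to 3′ along the gene, from 250 bases before the start to 10 after it, with TGATGCAA or its complement TTGCATCA in capitals. Slc1a4 and Slc7a11 are shown because both hold the element, and of the pair Slc1a4 passed the test between MYC and control TAMs and Slc7a11 did not. Slc7a8 and Slc36a4 are shown as carriers with a large fall and a large rise in MYC TAMs and neither motif in their windows.
Slc1a4, chr11:20332704-20332963, minus strand: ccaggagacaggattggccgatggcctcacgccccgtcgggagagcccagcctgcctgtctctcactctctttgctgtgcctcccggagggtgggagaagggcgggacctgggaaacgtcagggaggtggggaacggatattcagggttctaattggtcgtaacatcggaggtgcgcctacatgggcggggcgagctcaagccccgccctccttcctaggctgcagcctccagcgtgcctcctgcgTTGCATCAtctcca
Slc7a11, chr3:50443604-50443863, minus strand: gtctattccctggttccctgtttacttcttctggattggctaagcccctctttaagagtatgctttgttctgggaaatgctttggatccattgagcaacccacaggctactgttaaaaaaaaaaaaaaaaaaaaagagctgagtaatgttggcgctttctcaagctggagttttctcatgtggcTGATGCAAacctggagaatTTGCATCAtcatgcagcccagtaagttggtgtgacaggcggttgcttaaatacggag
Slc7a8, chr14:54781877-54782136, minus strand: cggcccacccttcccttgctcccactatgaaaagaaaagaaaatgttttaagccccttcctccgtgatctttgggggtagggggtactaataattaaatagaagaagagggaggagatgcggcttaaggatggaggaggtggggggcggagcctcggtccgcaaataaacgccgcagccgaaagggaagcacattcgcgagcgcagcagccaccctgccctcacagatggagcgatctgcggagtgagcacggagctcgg
Slc36a4, chr9:15709488-15709747, plus strand: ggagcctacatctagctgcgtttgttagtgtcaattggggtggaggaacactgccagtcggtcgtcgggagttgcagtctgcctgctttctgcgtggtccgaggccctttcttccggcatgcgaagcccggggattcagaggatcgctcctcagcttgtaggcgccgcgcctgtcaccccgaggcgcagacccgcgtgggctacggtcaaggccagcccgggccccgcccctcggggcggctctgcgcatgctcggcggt
In Slc7a11 the element is found at 2 places, at -66 to -59 on the strand of the gene and at -47 to -40 on the other strand. In Slc1a4 it spans the transcript start, from -4 to 4, on the other strand. A match of letters is a description of the window, and the study measured no binding at these sites.

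MYC TAMs were compared with control TAMs for differences that go with the genotype of the mouse in macrophages gated as tumour-associated. Of the 33 carriers, 2 were higher and 6 lower in MYC TAMs at an adjusted p below 0.05 in limma, which is 24.2% of the carriers. Over all 17475 genes 15.9% passed, 3.89% higher and 12% lower, and among the 24 carriers with a mean of 1 or more 29.2% passed, against 24% of all genes at that level. The MYC and control TAM libraries did not overlap for 11 carriers (33.3%), against 30.1% of all genes. The median difference of the carriers was -0.17, against -0.02 over all genes. The lower carriers were the CD98 light chains Slc7a5 and Slc7a8, the arginine carrier Slc7a1, the neutral amino acid carrier Slc1a4, Slc43a3 and the peptide carrier Slc15a2. The higher carriers were the creatine carrier Slc6a8 and the proline and tryptophan carrier Slc36a4. The libraries are bulk samples, so fewer cells of a type and less RNA per cell cannot be told apart here or below.

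Slc7a5 (chromosome 8, 121881150 to 121907694, minus strand, GRCm38), which encodes LAT1, the exchanger that brings leucine and other large neutral amino acids into growing cells, was at 1.61, 1.10 and 0.83 in MYC TAMs of mice 2, 4 and 6, against 2.91, 3.85 and 3.10 in control TAMs of mice 1, 3 and 5. The groups did not overlap, and the control library of mouse 3 was the highest of all 11. The difference was -2.11 ± 0.31 (SE), or 4.31-fold lower in MYC TAMs (adjusted p = 0.00193). Slc7a8 (chromosome 14, 54722209 to 54781946, minus strand), which encodes LAT2, was at 3.65, 3.08 and 5.05 in MYC TAMs, against 5.65, 5.90 and 5.78 in control TAMs. All 3 MYC TAM libraries were below the control TAM libraries, but mouse 6 lay 1.40 above the next MYC TAM library. The Slc7a8 difference was -1.85 ± 0.40 (adjusted p = 0.0121), and it was -2.41 (adjusted p = 0.000125) without mouse 6.

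The heavy chain gene and the other CD98 light chains did not pass. Slc3a2 was at 7.76, 7.81 and 7.25 in MYC TAMs, against 7.35, 7.20 and 7.34 in control TAMs, a difference of 0.31 ± 0.16 (adjusted p = 0.264) with overlapping groups. Slc7a7 was at 4.67, 4.87 and 6.17 in MYC TAMs, against 6.28, 6.04 and 6.38 in control TAMs, a difference of -0.999 ± 0.35 (adjusted p = 0.0889), and mouse 6 alone overlapped the control range. Slc7a6, another exchanger of cationic and neutral amino acids, differed by -0.27 ± 0.15 (adjusted p = 0.312), and Slc7a11 by -0.17 ± 0.16 (adjusted p = 0.514). Set against its light chains on the x scale, the heavy chain stood out in MYC TAMs of mice 2 and 4. Slc3a2 x was 5.38, 5.74 and 1.43 times the summed x of Slc7a5, Slc7a6, Slc7a7, Slc7a8 and Slc7a11 in MYC TAMs, against 1.20, 1.04 and 1.10 times in control TAMs. The same ratio was 1.43 and 1.68 in MYC MTMs and 1.02, 0.910 and 0.994 in control MTMs. Slc7a7 and Slc7a8 together held most of the light-chain RNA in every library, with Slc7a7 at 60.9%, 72.6% and 66.8% of the summed light-chain x in MYC TAMs and at 56.6%, 46.4% and 56.1% in control TAMs. Slc7a5 held 5.10%, 2.93% and 0.731% of it in MYC TAMs and 4.80%, 9.61% and 5.17% in control TAMs.

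Among the cationic carriers, Slc7a1 (chromosome 5, 148327410 to 148399904, minus strand), the widespread arginine and lysine importer CAT1, was at 0.95, 0.94 and 0.84 in MYC TAMs, against 1.56, 1.85 and 1.61 in control TAMs. The MYC TAM libraries lay close together and below every other library of the study. The difference was -0.76 ± 0.16, or 1.70-fold (adjusted p = 0.0105), and it was -1.22 (adjusted p = 0.0079) with a pseudocount of 0.1 in place of 1. Slc7a2, the arginine carrier of activated macrophages, was at 2.46, 2.80 and 3.65 in MYC TAMs, against 2.27, 3.06 and 3.71 in control TAMs. These groups covered nearly the same range (difference -0.04 ± 0.42, adjusted p = 0.959). Slc7a3, a carrier known mainly from neurons, was at most at 0.51 in any library.

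Slc1a4 (chromosome 11, 20302180 to 20332713, minus strand), the sodium-dependent carrier ASCT1 of alanine, serine and cysteine, was at 0.08, 0.17 and 0.07 in MYC TAMs, against 0.71, 1.20 and 1.13 in control TAMs. Every MYC TAM library was far below every control TAM library. The difference was -0.91 ± 0.15 (adjusted p = 0.00348), and it was -2.67 (adjusted p = 0.00111) with a pseudocount of 0.1, since the log2 scale with 1 added understates the change of a gene this low. Its paralog Slc1a5, the glutamine carrier ASCT2, was at 2.66, 3.01 and 2.34 in MYC TAMs, against 3.37, 2.72 and 2.48 in control TAMs, with overlapping groups (difference -0.19 ± 0.25, adjusted p = 0.631). Slc43a3 (chromosome 2, 84936579 to 84958509, plus strand), whose human protein is known as a carrier of nucleobases although its family carries neutral amino acids, was at 1.48, 1.76 and 1.82 in MYC TAMs, against 2.42, 2.84 and 2.32 in control TAMs. The groups did not overlap, and the difference was -0.84 ± 0.24 (adjusted p = 0.041). Slc43a1, Slc43a2 and Slc16a10, which let neutral or aromatic amino acids flow down their gradient, differed by 0.17 ± 0.16, -0.47 ± 0.27 and 0.02 ± 0.17, none past the threshold.

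Slc6a8 (chromosome X, 73673150 to 73682502, plus strand), the importer of creatine, was at 2.38, 1.92 and 2.10 in MYC TAMs, against 0.56, 0.51 and 0.82 in control TAMs. The difference was 1.50 ± 0.19, or 2.83-fold higher (adjusted p = 0.000879), the smallest adjusted p of the 33 carriers, and 2.44 (adjusted p = 0.00117) with a pseudocount of 0.1. Slc36a4 (chromosome 9, 15709738 to 15743361, plus strand), of a family whose other members are driven by protons, was at 3.81, 4.34 and 3.83 in MYC TAMs, against 2.35, 2.03 and 2.61 in control TAMs. For both genes the lowest MYC TAM library lay more than 1 above the highest control TAM library. The Slc36a4 difference was 1.66 ± 0.24, or 3.15-fold (adjusted p = 0.00158). Slc15a2 (chromosome 16, 36750177 to 36784962, minus strand), the proton-coupled importer PEPT2 of dipeptides and tripeptides, was at 0.82, 0.60 and 0.13 in MYC TAMs, against 1.23, 1.51 and 1.02 in control TAMs. Its groups did not overlap either, with mouse 6 the lowest of all 11 libraries, and the difference was -0.73 ± 0.21 (adjusted p = 0.0385). Slc15a3, which carries histidine and peptides out of endolysosomes, was at 5.52, 5.20 and 4.51 in MYC TAMs, against 4.11, 4.43 and 4.20 in control TAMs. The groups did not overlap, and the difference did not pass (0.83 ± 0.25, adjusted p = 0.0542). None of the 7 Slc38 carriers passed, although Slc38a2, the starvation-induced sodium-coupled importer of neutral amino acids, was at 2.88, 3.10 and 4.09 in MYC TAMs, against 3.90, 4.36 and 4.64 in control TAMs (difference -0.94 ± 0.32, adjusted p = 0.0792).

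**Figure D2:**
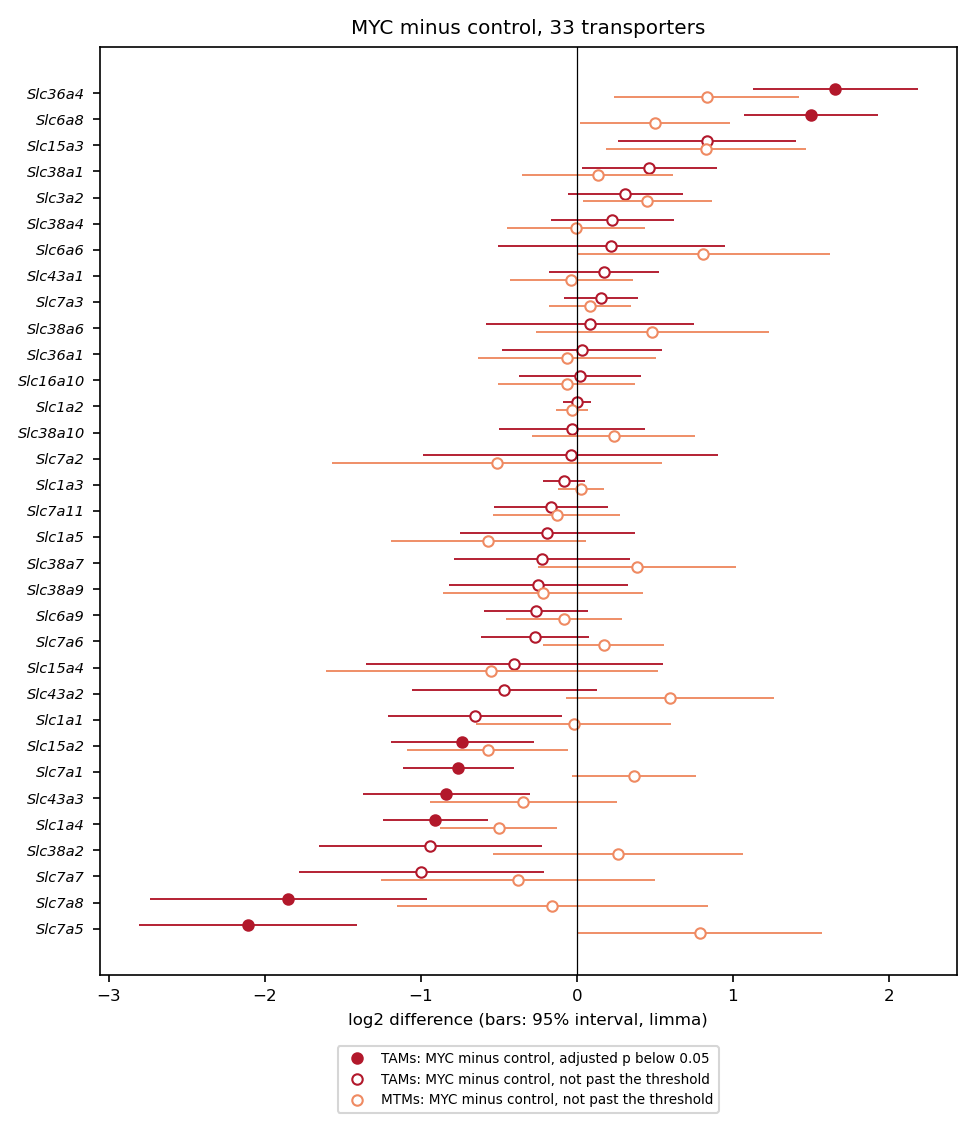
Log2 difference of MYC minus control for each of the 33 carriers, in TAMs (dark red) and in MTMs (orange), with 95% intervals from limma and filled points for an adjusted p below 0.05. The 8 filled points are all in TAMs, from -2.11 for Slc7a5 to 1.66 for Slc36a4.

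**Figure D3:**
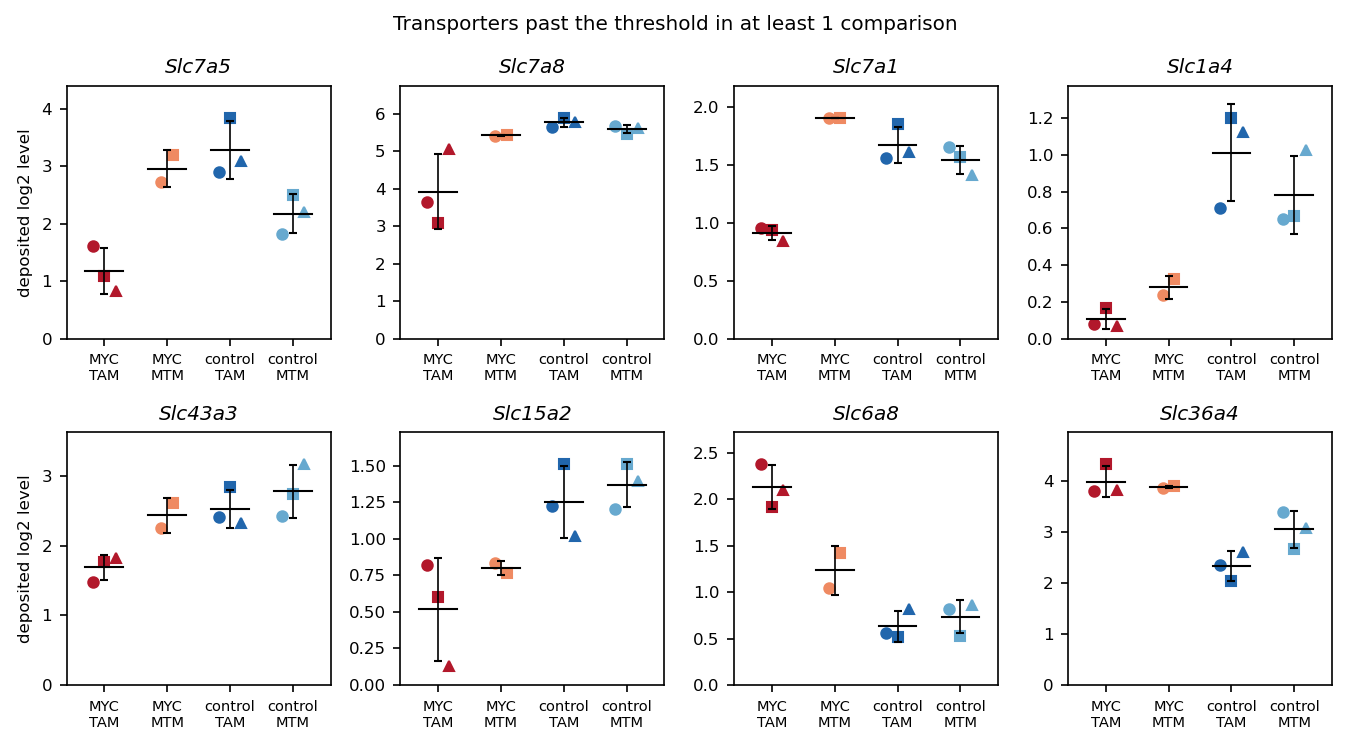
Deposited log2 level of the 8 carriers that passed in at least 1 comparison, by group, with 1 point per library (circle, square and triangle for mice 2, 4 and 6, or 1, 3 and 5), the mean as a line and the SD as bars. Every MYC TAM point lies outside the range of the control TAM points in all 8 panels, and Slc7a5 and Slc7a1 are low in MYC TAMs but not in MYC MTMs.

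Proliferation genes and markers of several cell types also differed between MYC and control TAMs. Over all genes 3.89% were higher and 12% lower in MYC TAMs. Proliferation genes were lower in MYC TAMs for 12 of 12 genes, with a summed x of 35.9 to 46.4 in MYC TAMs and 150 to 250 in control TAMs. Epithelial markers were lower for 8 of 14, with a summed x of 50.9 to 666 in MYC TAMs and 1430 to 3300 in control TAMs, and T and NK cell markers were lower for 8 of 12, with 3.24 to 8.05 in MYC TAMs and 65.4 to 142 in control TAMs. In MYC TAMs Cd3e and Cd8a were under 0.1 in every library, and no epithelial marker was. Of 6 neutrophil markers 3 were higher and none lower, and of 8 macrophage markers 1 was higher (Cd68) and 5 were lower. Of 7 B and plasma cell markers 2 were lower (28.6%), of 8 dendritic cell markers 3 (37.5%), of 6 endothelial markers 1 (16.7%) and of 7 fibroblast markers 0. None of these markers was higher. Their part in the carrier differences was not tested.

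The MYC TAM library of mouse 6 was the highest of the 3 MYC TAM libraries for 14 of the 33 carriers, by at least 0.5 for 8 of them (Slc7a8, Slc7a7, Slc38a2, Slc38a6, Slc38a7, Slc7a2, Slc6a6 and Slc38a9). It was also the MYC TAM library with the highest Folr2, Vcam1 and Adgre1. It also had the lowest mean epithelial marker level of the 3, at 1.8, against 4.21 in mouse 2 and 3.06 in mouse 4. Without it, Slc7a7 (-1.47, adjusted p = 0.00206), Slc38a2 (-1.31, adjusted p = 0.00903), Slc15a3 (1.12, adjusted p = 0.00707) and Slc3a2 (0.49, adjusted p = 0.0297) passed as well. Slc7a5, Slc6a8, Slc36a4 and Slc1a4 passed under every alternative that could be run. With only the MYC and control TAM libraries in the fit, the other 4 missed the threshold (adjusted p = 0.0745 for Slc7a8, 0.0574 for Slc7a1, 0.0795 for Slc43a3 and 0.124 for Slc15a2). Quantile normalisation ended the calls of Slc7a1 (adjusted p = 0.0615), Slc43a3 (0.117) and Slc15a2 (0.0928), and centring each library on its median those of Slc43a3 (0.0648) and Slc15a2 (0.0806). A pseudocount of 0.1 ended that of Slc15a2 (-1.64, adjusted p = 0.0505). Slc43a3 was also lost without any one of the MYC TAM, MYC MTM or control TAM libraries or control MTM mouse 3 (adjusted p 0.053 to 0.152), and Slc15a2 without 1 of 7 libraries (mouse 4 or 6 of the MYC TAMs, either mouse of the MYC MTMs, mouse 1 or 3 of the control TAMs, or mouse 5 of the control MTMs; 0.0586 to 0.137). Centring raised the median of all genes in this comparison to 0.19. Among all called genes 69.9% were higher after centring, 41.6% after quantile normalisation and 24.5% on the deposited scale. Of the carriers, 7 were then higher and 4 lower after centring, and 4 higher and 3 lower after quantile normalisation. No called carrier changed sign. The higher carriers after centring included Slc7a3, Slc43a1 and Slc38a4, which have a mean under 1.

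In MTMs the same genotype comparison gave no carrier past the threshold. Over all genes 0.618% passed, and 7 of the 33 carriers (21.2%) had an unadjusted p below 0.05, against 10.1% of all genes. None of the 18 alternatives called a carrier either. The libraries of the MYC and control MTMs did not overlap for 17 carriers (51.5%), against 31.2% of all genes, with only 2 MYC MTM libraries to overlap. The median difference of the carriers was 0.00, against -0.02 over all genes. MYC MTMs had Slc36a4 at 3.87 and 3.90, against 3.40, 2.68 and 3.09 in control MTMs (difference 0.83 ± 0.26, adjusted p = 0.271). They had Slc6a8 at 1.05 and 1.42, against 0.81, 0.53 and 0.86 (0.50 ± 0.21, adjusted p = 0.469), Slc15a3 at 4.12 and 4.65, against 3.39, 3.66 and 3.64 (0.83 ± 0.28, adjusted p = 0.322), and Slc1a4 at 0.24 and 0.32, against 0.65, 0.67 and 1.03 (-0.50 ± 0.17, adjusted p = 0.303). For these 4 carriers the point estimate had the sign seen in TAMs, without passing. The same held for Slc15a2 (-0.572), Slc43a3 (-0.345) and Slc7a8 (-0.158). Slc7a5 and Slc7a1 had the other sign. Slc7a5 was at 2.73 and 3.19 in MYC MTMs, against 1.83, 2.49 and 2.21 in control MTMs (0.79 ± 0.35, adjusted p = 0.496). Slc7a1 was at 1.91 and 1.91 in MYC MTMs, against 1.65, 1.57 and 1.42 in control MTMs (0.36 ± 0.18, adjusted p = 0.55).

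MYC TAMs of mice 2, 4 and 6 were next set against MYC MTMs of mice 2 and 4. Of the 33 carriers, Slc6a8 was higher and Slc7a5 and Slc7a1 were lower in MYC TAMs, which is 9.09% of the carriers against 4.49% of all genes (0.664% higher, 3.82% lower). The libraries did not overlap for 14 carriers (42.4%), against 30.4% of all genes, and the median difference was -0.17 for the carriers and -0.01 for all genes. The MYC TAM libraries also enter the genotype comparison above, so the pair of comparisons is not independent.

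Slc7a5 was at 1.61, 1.10 and 0.83 in MYC TAMs, against 2.73 and 3.19 in MYC MTMs, a difference of -1.79 ± 0.35, or 3.45-fold (adjusted p = 0.0214). Slc7a1 was at 0.95, 0.94 and 0.84 in MYC TAMs, against 1.91 and 1.91 in MYC MTMs (-0.999 ± 0.18, adjusted p = 0.0138), and Slc6a8 at 2.38, 1.92 and 2.10 in MYC TAMs, against 1.05 and 1.42 in MYC MTMs (0.90 ± 0.21, adjusted p = 0.0479). For all 3 genes the groups stood apart, and the mice with both libraries showed the same direction. The Slc7a5 difference of TAM minus MTM was -1.12 within mouse 2 and -2.10 within mouse 4. With the mouse as a fixed block, which uses these within-mouse differences, none of the 3 stayed past the threshold (Slc7a5 -1.61, adjusted p = 0.0582; Slc7a1 -0.97, adjusted p = 0.0829; Slc6a8 0.91, adjusted p = 0.136), and Slc7a8 (-2.07, adjusted p = 0.0157) and Slc38a2 (-1.58, adjusted p = 0.0345) passed instead. The count over all genes was 476 with that block and 784 without it.

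Slc7a8 was at 3.65, 3.08 and 5.05 in MYC TAMs, against 5.42 and 5.44 in MYC MTMs (-1.50, adjusted p = 0.102 without the block), and Slc38a2 at 2.88, 3.10 and 4.09 in MYC TAMs, against 4.27 and 4.88 in MYC MTMs (-1.21, adjusted p = 0.101). Mouse 6 has no MTM library, so it leaves the blocked fit, and its TAM library was the nearest to the MTMs for both genes. Without that library Slc7a8 (-2.07, adjusted p = 0.00144), Slc38a2 (-1.58, adjusted p = 0.0146), Slc15a3 (0.98, adjusted p = 0.0386) and Slc3a2 (0.59, adjusted p = 0.0427) also passed. Slc7a5 missed the threshold without MYC TAM mouse 4 or either MYC MTM library (adjusted p 0.0678 to 0.192), Slc7a1 without either MYC MTM library (0.123 and 0.11), and Slc6a8 without any one library other than MYC TAM mouse 4 (0.0541 to 0.375). With only the MYC TAM and MYC MTM libraries in the fit, all 3 missed it (adjusted p = 0.122 for Slc7a5, 0.123 for Slc7a1 and 0.249 for Slc6a8). Slc7a1 also missed it after centring (0.0521) and after quantile normalisation (0.0559), and Slc6a8 after centring (0.0518) and with a pseudocount of 0.1 (1.27, adjusted p = 0.114).

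Of 12 proliferation genes 11 were lower in this comparison, with a summed x of 35.9 to 46.4 in MYC TAMs and 198 to 214 in MYC MTMs. Over all genes 0.664% were higher and 3.82% lower in MYC TAMs. Of 8 macrophage markers 1 was higher and 3 were lower, with a summed x of 1860 to 1950 in MYC TAMs and 3110 to 3200 in MYC MTMs. Of 8 dendritic cell markers 2 were lower, with a summed x of 0.101 to 2.82 in MYC TAMs and 6.35 to 15.2 in MYC MTMs, and Xcr1 and Ccr7 were under 0.1 in every MYC TAM library. Of 6 neutrophil markers 1 was higher, with a summed x of 74.1 to 126 in MYC TAMs and 66.2 to 71.9 in MYC MTMs. One marker each was lower among 14 epithelial (50.9 to 666 in MYC TAMs, 529 to 642 in MYC MTMs), 12 T and NK cell (3.24 to 8.05 in MYC TAMs, 5.67 to 22.6 in MYC MTMs) and 7 B and plasma cell markers (2.04 to 8.16 in MYC TAMs, 20.1 to 21.7 in MYC MTMs). A single lower marker was 7.14%, 8.33% and 14.3% of these lists, in that order. None of 7 fibroblast and 6 endothelial markers passed. The part of these markers in the carrier differences was not tested.

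Control TAMs and control MTMs differed in no carrier at the threshold, while 2.37% of all genes passed. An unadjusted p below 0.05 was reached by 7 carriers (21.2%), against 11.8% of all genes, and the libraries did not overlap for 8 (24.2%), against 18.9% of all genes. Slc3a2 was at 7.35, 7.20 and 7.34 in control TAMs, against 6.66, 6.78 and 6.80 in control MTMs (0.55 ± 0.16, adjusted p = 0.156), and it passed only when MYC TAM mouse 6 was left out of the shared variance (adjusted p = 0.0411). Slc7a5 was at 2.91, 3.85 and 3.10 in control TAMs, against 1.83, 2.49 and 2.21 in control MTMs (1.11 ± 0.31, adjusted p = 0.127). Slc36a4 was at 2.35, 2.03 and 2.61 in control TAMs, against 3.40, 2.68 and 3.09 in control MTMs (-0.72 ± 0.24, adjusted p = 0.2), and Slc38a1, a sodium-coupled importer of glutamine, at 2.09, 2.16 and 2.57 in control TAMs, against 3.10, 2.70 and 3.00 in control MTMs (-0.66 ± 0.19, adjusted p = 0.149). In these 4 genes the control groups did not overlap. Over all genes the count was 255 with the mouse as a fixed block and 414 without it, and no carrier passed in either fit.

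The difference of the TAM minus MTM difference between MYC and control mice was tested as an interaction. It passed for 1 carrier, Slc7a5, and for 1.24% of all genes. The Slc7a5 difference of TAM minus MTM was -1.79 in MYC mice and 1.11 in control mice, which gave an interaction of -2.90 ± 0.47 (adjusted p = 0.0218). Within mice, the TAM minus MTM difference was -1.12 and -2.10 in MYC mice 2 and 4, against 1.08, 1.36 and 0.89 in control mice 1, 3 and 5, so every mouse of a genotype had the same sign. A fixed block for the mouse gave an interaction of -2.72 (adjusted p = 0.0741), and the count over all genes was 31, against 216 without the block and 325 with the mouse as a random block. It also missed the threshold without mouse 4 of the MYC TAMs, either mouse of the MYC MTMs, mouse 5 of the control TAMs, or mouse 1 or 5 of the control MTMs (adjusted p 0.0515 to 0.134). The other 7 carriers that passed between MYC and control TAMs did not pass this test. For Slc7a1 the interaction was -1.13 (adjusted p = 0.0625), and it passed under 3 alternatives. These were the mouse as a random block (-1.12, adjusted p = 0.041), a minimum mean of 1 (adjusted p = 0.0251) and no variance trend (adjusted p = 0.0106). Slc7a8 passed without MYC TAM mouse 6 (-2.25, adjusted p = 0.00776).

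**Figure D4:**
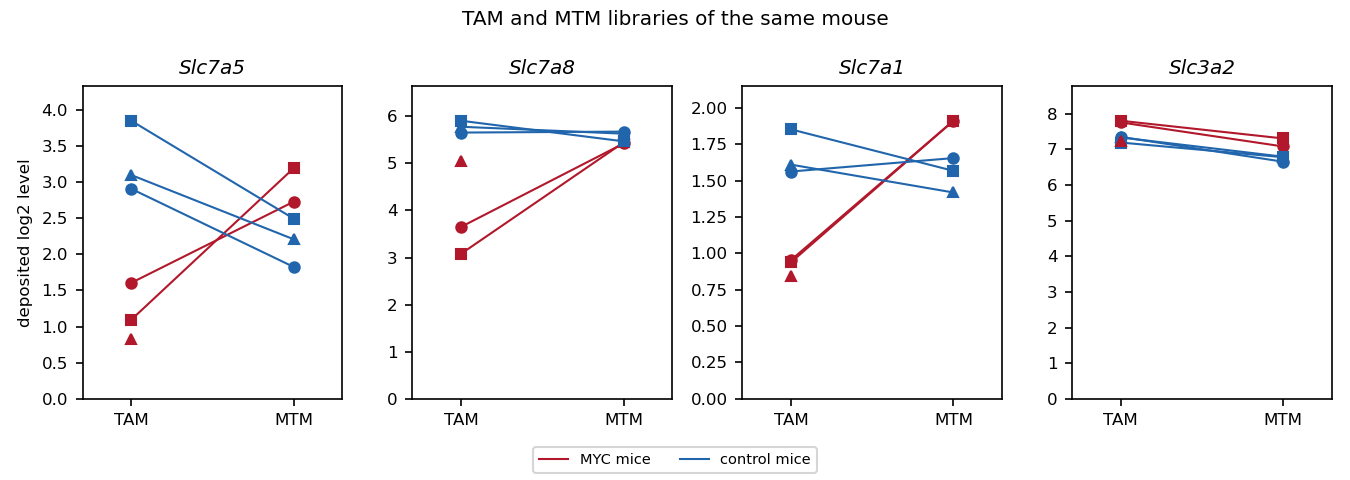
Deposited log2 level of Slc7a5, Slc7a8, Slc7a1 and Slc3a2 in TAMs and MTMs, with a line joining the libraries of a mouse (red, MYC mice; blue, control mice) and an unjoined red triangle for mouse 6, which has TAMs only. The Slc7a5 lines slope up to the MTMs in both MYC mice and down in all 3 control mice, whereas the Slc3a2 lines slope down in all 5.

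The rest of the amino acid machinery was described through 5 further lists. Of 28 other amino acid and peptide carriers, 1 was higher and 3 were lower in MYC TAMs than in control TAMs, which is 14.3% of them and near the 15.9% of all genes that passed. Mfsd12, which is needed for import of cysteine into lysosomes and melanosomes, was at 6.98, 7.23 and 7.51 in MYC TAMs, against 5.89, 6.01 and 5.97 in control TAMs (1.29 ± 0.19, adjusted p = 0.00202). Slc7a4, an orphan of the cationic carrier family, differed by -1.43 (adjusted p = 0.00473), the sodium- and chloride-coupled importer Slc6a14 by -0.88 (adjusted p = 0.0371) and the glutamine carrier Slc38a3 by -1.30 (adjusted p = 0.0432). Of 13 mitochondrial carriers, none was higher and 2 were lower (15.4%, again near the share of all genes), the aspartate and glutamate exchanger Slc25a12 (-1.12, adjusted p = 0.0022) and the arginine and lysine carrier Slc25a29 (-0.78, adjusted p = 0.0167).

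Of 32 genes that sense amino acids for mTORC1 or GCN2, 5 were higher and 4 lower in MYC TAMs. Together these are 28.1% of the list, against 15.9% of all genes. Most of the 32 genes have a mean of 1 or more, and 24% of all genes at that level passed. The 4 lower genes are 12.5% of the list, near the 12% of all genes that were lower. Fnip2, a partner of folliculin, was at 3.99, 4.07 and 3.83 in MYC TAMs, against 1.44, 1.50 and 2.21 in control TAMs (2.25 ± 0.25, adjusted p = 0.000417), and Rragd, a Rag GTPase that brings mTORC1 to lysosomes, at 2.27, 2.63 and 3.29 in MYC TAMs, against 0.50, 0.55 and 0.74 in control TAMs (2.13 ± 0.24, adjusted p = 0.000467). Sesn1, a sestrin (-1.49, adjusted p = 0.002), and Rptor, the substrate-binding subunit of mTORC1 (-1.28, adjusted p = 0.00599), were lower. Fnip2 was also the only gene of the 5 lists past the threshold between MYC and control MTMs (2.04, adjusted p = 0.0157).

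Of ATF4 and its targets other than carriers, none of 20 was higher and 5 were lower (25%) in MYC TAMs, against 3.89% higher and 12% lower over all genes. The 5 were Aldh18a1, which starts proline synthesis (1.99, 2.29 and 2.67 in MYC TAMs, against 4.21, 5.12 and 4.09 in control TAMs, difference -2.16, adjusted p = 0.000814), the mitochondrial folate enzymes Shmt2 (-0.96, adjusted p = 0.00539) and Mthfd2 (-1.92, adjusted p = 0.0103), the serine synthesis enzyme Psat1 (-1.15, adjusted p = 0.0212) and Ddit4. The median difference of the 20 genes was -0.55, against -0.02 over all genes. Most of the 20 genes have a mean of 1 or more, and 24% of all genes at that level passed in either direction. Of 24 enzymes that use transported amino acids, 1 was higher (4.17%) and 5 were lower (20.8%). Cdo1, which oxidises cysteine on the way to taurine, was at 6.79, 7.00 and 6.49 in MYC TAMs, against 0.42, 1.07 and 1.67 in control TAMs (5.70 ± 0.48, adjusted p = 8.98e-05), while Csad, the next enzyme of taurine synthesis, was lower (-1.93, adjusted p = 0.00582). Ckb, a creatine kinase, was at 5.16, 5.10 and 6.83 in MYC TAMs, against 8.39, 8.43 and 8.39 in control TAMs (-2.70 ± 0.40, adjusted p = 0.00182), and Ass1, which rebuilds arginine from citrulline, differed by -1.81 (adjusted p = 0.00501). Slc6a6, the taurine carrier, did not pass beside these enzymes, at 6.18, 6.54 and 7.34 in MYC TAMs, against 6.45, 6.27 and 6.66 in control TAMs.

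Between MYC TAMs and MYC MTMs, 1 of the other carriers was higher (Mfsd12), 1 mitochondrial carrier (Slc25a12), 2 sensing genes (Sesn1 and Flcn) and 1 gene of the ATF4 list (Aldh18a1) were lower, and of the enzymes 1 was higher and 3 were lower. The share past the threshold was 3.57% of the other carriers, 7.69% of the mitochondrial carriers, 6.25% of the sensing genes, 5% of the ATF4 list and 16.7% of the enzymes, against 4.49% of all genes. Cdo1 was at 2.01 and 3.92 in MYC MTMs (TAM minus MTM difference 3.80, adjusted p = 0.00498), and Arg1, the arginase of alternatively activated macrophages, was at 4.48, 4.01 and 4.85 in MYC TAMs, against 8.36 and 8.03 in MYC MTMs (-3.75, adjusted p = 0.00838). Ckb (-2.45, adjusted p = 0.0151) and Gamt, which completes creatine synthesis (-1.58, adjusted p = 0.0323), were lower too. No gene of the 5 lists passed between control TAMs and control MTMs, and the interaction passed for Slc25a12 (-1.32, adjusted p = 0.0436) and Cdo1 (3.84, adjusted p = 0.04).

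**Figure D5:**
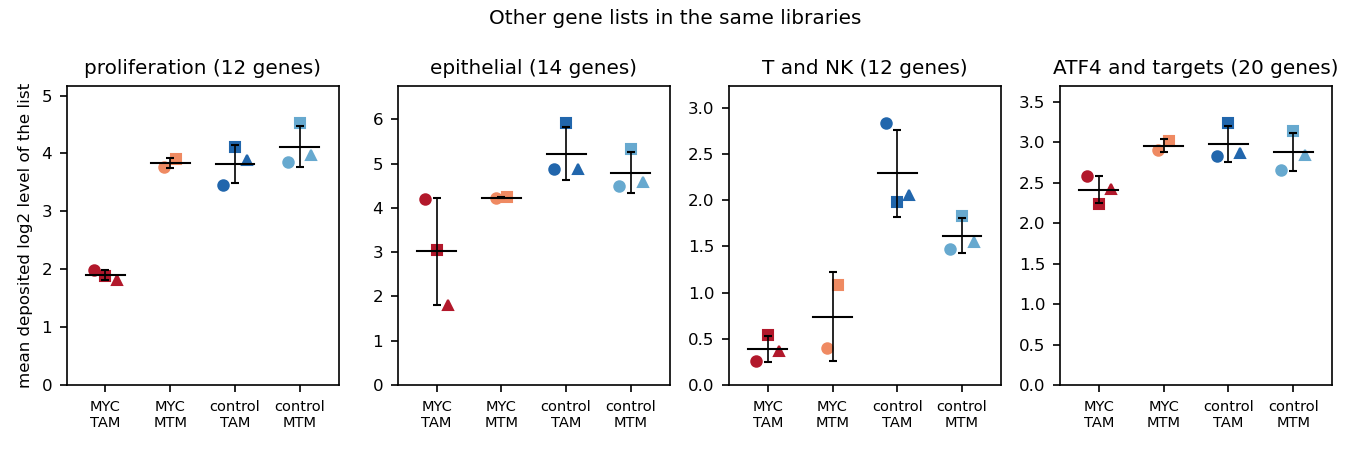
Mean deposited log2 level per library of the proliferation genes, the epithelial markers, the T and NK cell markers and the ATF4 list, by group, with the mean as a line and the SD as bars; circle, square and triangle are mice 2, 4 and 6, or 1, 3 and 5. All 3 MYC TAM libraries are below every other library for the proliferation genes (1.81 to 1.99 in MYC TAMs, 3.46 to 4.11 in control TAMs) and for the ATF4 list (2.24 to 2.58 in MYC TAMs, 2.83 to 3.23 in control TAMs).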

How the data were processed

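Messenger RNA of sorted macrophages was sequenced from 500 ng of RNA per library (integrity numbers 3.3 to 9.6, not assigned to libraries) after poly-A capture, using stranded library chemistry with 8 cycles of amplification, per the labels' protocols. HISAT2, DESeq2 and mm10 (GRCm38.p5) are named without roles, per the submitters' processing notes; how reads were counted is not given in the sources used here. The deposited values are log2 expression made by the authors with an unstated formula, inferred here as log2 of x plus 1.00. In every library 100.0% of the low values tested were whole multiples of a read value within 0.05. For some genes the lowest value is shared between libraries. The next step above it was taken to stand at 2 read values, and the depth estimates rest on that reading. Whether the lowest value stands for no read or for up to 1 read is not known. Depth estimates cover counting error only.

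limma 3.58.1 in R 4.3.3 was fitted to all 11 libraries with 4 group means, with a variance trend and no block, two-sided, adjusted by Benjamini-Hochberg over 17475 genes with a threshold of 0.05. Each library is a separate sort, and without a block the p-values measure the spread between libraries within groups. Within a group each library comes from another mouse. For TAM minus MTM and the interaction, this spread leaves out that libraries can share a mouse. Differences are on the log2(x + 1) scale, which understates changes of low genes. TAMs and MTMs with the same number come from the same mouse, per the titles. Deviations from the group means correlated at 0.098 and 0.038 in the MYC pairs and at 0.176, 0.211 and 0.078 in the control pairs, and limma estimated 0.127 for libraries of a mouse. Alternatives were a pseudocount of 0.1, a minimum mean of 1, median centring, quantile normalisation, no variance trend, only the 2 groups compared, the mouse as a fixed or random block, and each library left out. The code was tested on simulated data. There were 26 entries with names turned into dates or numbers and 68 that share a symbol, and they stayed in the tests.

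The carriers and all gene lists were chosen with earlier results of these data known. All carriers past the threshold are given by library, and up to 4 genes per further list by smallest adjusted p. Of the 5 further lists of 33, 14, 33, 22 and 24 genes, 28, 13, 32, 20 and 24 were measured. Gene coordinates are from GENCODE M21 on GRCm38. Levels, promoters and plots used Python 3.11.15 (numpy 2.4.6; pandas 2.3.3; matplotlib 3.10.9).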

Additional observations from a re-analysis of the deposited data

Results flagged for a closer look

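The Slc7a5 difference between TAMs and MTMs was flagged because it differed between the genotypes in a test of that difference itself, with an interaction of -2.90 on the log2 scale in limma (adjusted p = 0.0218). Within mice the TAM minus MTM difference was -1.12 and -2.10 in the MYC mice and 1.08, 1.36 and 0.89 in the control mice. Proliferation genes were also lower in MYC TAMs than in the other groups, with mean levels of 1.81 to 1.99 in MYC TAMs, 3.77 to 3.90 in MYC MTMs, 3.46 to 4.11 in control TAMs and 3.86 to 4.52 in control MTMs, and their part in the Slc7a5 result was not tested. No group held more than 3 libraries, so single libraries were not screened for outliers.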

How the results depend on the processing

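Of the 12 carrier calls, none changed direction under any of the 19 alternatives; over all alternatives 160 calls were kept, 58 were lost and 26 were gained. With only the 2 groups compared in the fit, MYC TAMs against MYC MTMs gave 0 carriers and 90 genes, control TAMs against control MTMs gave 196 genes, MYC against control TAMs gave 4 carriers and 1547 genes, and MYC against control MTMs gave 0 genes. Median centring gave 1 carrier between MYC TAMs and MYC MTMs, 5029 genes between MYC and control TAMs and 129 genes for the interaction. Among genes called between MYC TAMs and MYC MTMs, 35.8% were higher after centring, 29.9% after quantile normalisation and 14.8% on the deposited scale. The interaction was passed by 2 carriers and 327 genes with a minimum mean of 1, by 2 carriers without a variance trend, by 2 carriers and 325 genes with the mouse as a random block, and by 0 carriers and 31 genes with the mouse as a fixed block. With the fixed block 476 genes passed between MYC TAMs and MYC MTMs and 255 between control TAMs and control MTMs. The block changed no carrier call other than those given with the results. A fixed mouse block cannot give MYC minus control, since each mouse has 1 genotype.

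Leaving out each library in turn gave 6 to 10 carriers and 1734 to 2996 genes between MYC and control TAMs, 0 to 0 carriers and 23 to 128 genes between MYC and control MTMs, 0 to 6 carriers and 163 to 1031 genes between MYC TAMs and MYC MTMs, 0 to 1 carriers and 214 to 537 genes between control TAMs and control MTMs, and 0 to 2 carriers and 21 to 301 genes for the interaction. Where this left 1 MYC MTM library, it was assumed to vary like the other groups. The cause of these changes was not tested. With a pseudocount of 0.1, Slc15a2 lost its call between MYC and control TAMs (-1.64, adjusted p = 0.0505) and Slc6a8 its call between MYC TAMs and MYC MTMs (1.27, adjusted p = 0.114), where Slc7a1 kept its call (-1.54, adjusted p = 0.0129). Centring brought 5 carriers past the threshold between MYC and control TAMs, all higher (Slc7a3, Slc43a1, Slc38a1, Slc38a4 and Slc15a3). Of these, Slc7a3, Slc43a1 and Slc38a4 had a mean under 1 and their highest value in MYC TAM mouse 4 (0.51, 0.71 and 0.81). Centring also shifts values at or near the lowest value, and the Slc38a4 difference went from 0.23 to 0.43. Depth limits the carriers with a mean under 1, of which Slc38a4 was at its shared lowest value in 8 libraries, Slc43a1 in 4 and Slc7a3 in 3.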
